A study of Sus scrofa with 64 samples.

Results

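The circadian clock genes were described in the mucosa of the mid-jejunum of piglets that were fed or fasted before weaning, at 4 weeks of age, and after weaning, at 6 weeks of age. The set consisted of 10 genes named for their place in the clock: PER1, PER2, PER3, CRY1, CRY2, CLOCK, BMAL1, NR1D1, NR1D2 and DBP. Gene identifiers in the deposited count files were paired with pig symbols, and 9 of the 10 were found among 31908 gene identifiers. All 9 passed the filter on low counts and were tested among 14062 genes. PER3 was not analysed here, because the table of names used paired no identifier with it.

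The pigs were 64 female TN20 piglets, a Large White by Norwegian Landrace cross, with 16 in each of 4 groups and 1 library per pig. Fed 4-week piglets had stayed with the sow on a commercial farm, drank her milk and had received no creep feed. Fasted 4-week piglets were put into a pen of their own on that farm and went without feed for 48 h, so that fasting and removal from the sow cannot be told apart at this age. The 6-week piglets had been moved to a research facility at 4 weeks of age, pair-housed there, and weaned onto a diet that they ate for 2 weeks. Fed 6-week piglets went on eating that diet, and fasted 6-week piglets had it withheld for the last 48 h. Every group had free access to water. Age, weaning, diet, housing and site changed together between 4 and 6 weeks and cannot be told apart. The labels describe the killing of the fed and fasted 4-week piglets as simultaneous, but give no clock hour for any pig, no light schedule, and no litter or sequencing batch. Between the ages, and between fed and fasted 6-week piglets, a different hour of sampling therefore cannot be told apart from the factors named. The same holds for the difference between the fasting responses. Each pig was sampled at 1 time, so a shifted daily rhythm cannot be told apart from a changed level.

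The jejunum is the middle stretch of the small intestine, where most nutrients are absorbed. In mammals the clock is a loop of transcription that runs in nearly every cell. A dimer of BMAL1 and CLOCK switches on the PER and CRY genes, whose proteins return to the nucleus and inhibit that dimer, so that transcript levels rise and fall over the day. The dimer also switches on NR1D1 and NR1D2, which encode the nuclear receptors REV-ERB alpha and REV-ERB beta and repress BMAL1, and DBP, which encodes a transcription factor that carries the rhythm to other genes. In rodents the times of meals set the phase of the clock in gut and liver, while light sets that of the brain.

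Library totals ranged from 18774144 to 21159989 counts, and 16978 to 18961 genes had at least 1 count in a library. Levels are CPM (gene counts relative to the size of the library) scaled by TMM (trimmed mean of M values), a normalisation that sets the bulk of the genes equal between libraries. They are not corrected for transcript length and are compared here only between pigs, never between genes. Enterocyte markers were high in every group, with a mean log2 CPM between 11.61 and 12.24 over 10 tested markers. The extraction text in the labels speaks of muscle tissue, whereas of 8 skeletal muscle markers only CKM and TNNI2 were tested, and the highest count of any library was 36 for CKM and 41 for TNNI2. ACTA1 and TNNT3 did not pass the filter, with highest counts of 102 and 15, and MYH1, MYH2, MYH7 and MB had no identifier. Within each group, 0 pairs of libraries held identical counts. Fasted 4-week pigs 1, 28 and 32 had the least weight in an earlier analysis of these data, and the results were also computed without them. The TMM factors of pigs 1 and 28, 1.38 and 0.758, are the extremes of the series, and that of pig 32 is 0.884. Single pigs of the fasted 4-week group had a mean enterocyte marker level of 9.84 to 12.58, beside 12.03 to 12.49 in fed 4-week piglets.

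After 48 h without feed, 4-week piglets had higher BMAL1 and PER1 and lower CLOCK, PER2, NR1D1, NR1D2 and DBP than their fed counterparts, while no call was made for CRY1 and CRY2. DBP fell 8.95-fold, BMAL1 rose 2.52-fold and PER1 rose 2.68-fold. In 6-week piglets the same length of fasting gave 1 call, a 1.42-fold rise of PER1. The fasting response itself differed between the ages for 8 of the 9 genes, CRY1 being the exception, beside 53.7% of all genes tested. With library size alone it also differed for 8, with CRY1 called (-0.44, adjusted p = 0.0031) and CRY2 not.

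**Figure D1:**
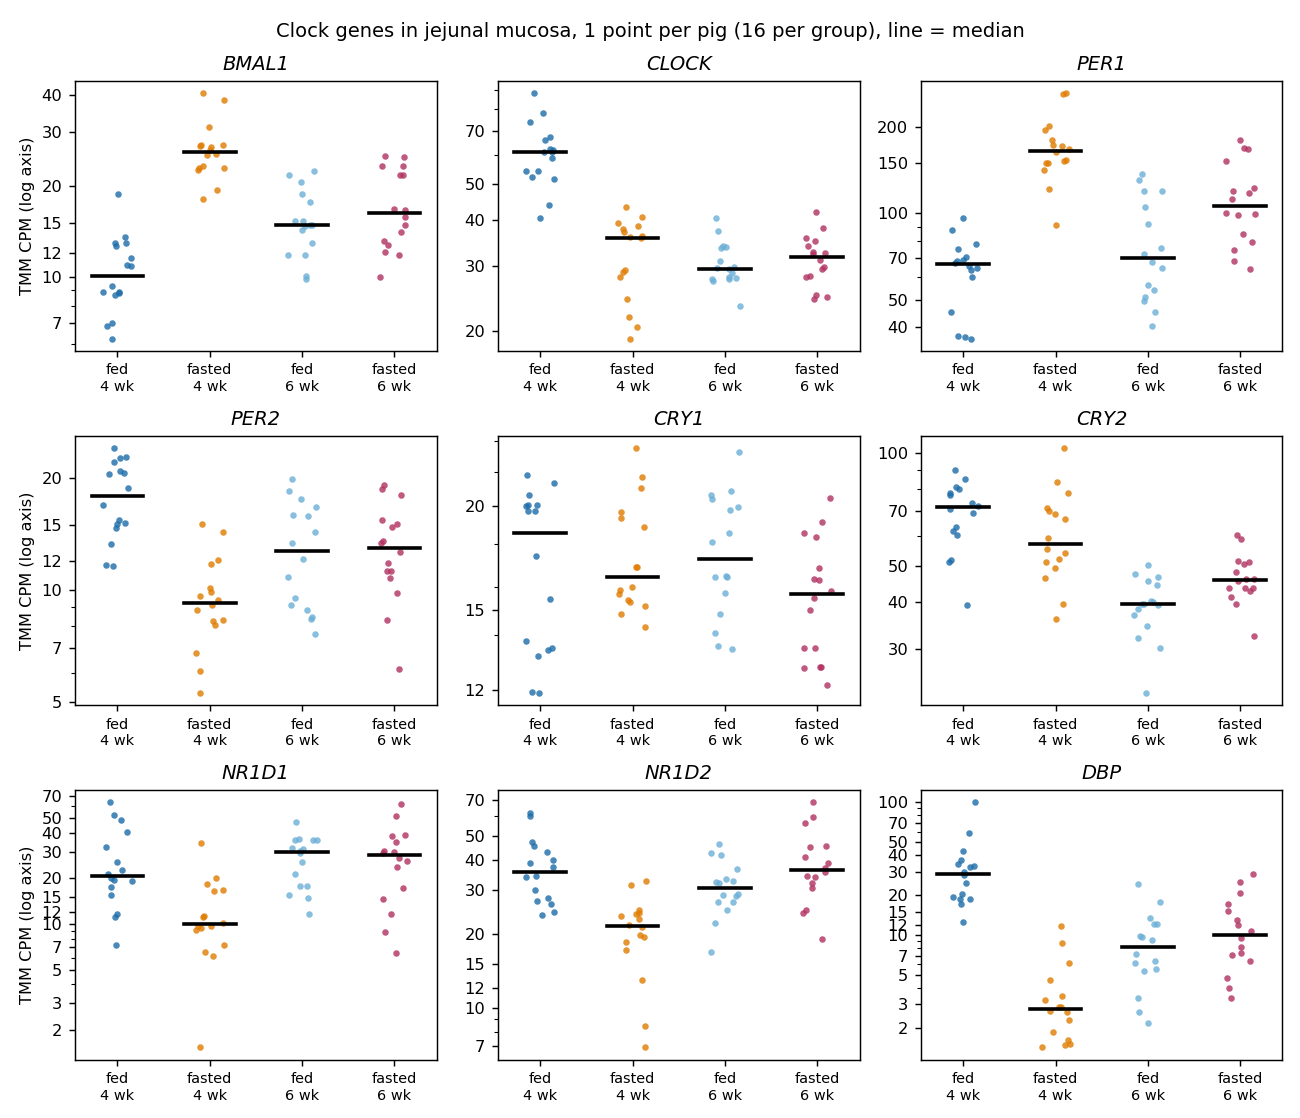
TMM-scaled CPM on a log axis for the 9 measured clock genes in the 4 groups, with 1 point per pig (16 per group) and a line at the group median. DBP in the fasted 4-week piglets lies between 1.42 and 11.7, below every fed 4-week piglet, while BMAL1 and PER1 are highest in that group.

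BMAL1 encodes the positive arm of the loop together with CLOCK. Identifier ENSSSCG00000013397 is listed as ARNTL, an older symbol of BMAL1, on chromosome 2 from 45895637 to 46025174 of the Sscrofa11.1 build. BMAL1 had a lowest, median and highest level of 6.24, 10.1 and 18.7 CPM in fed 4-week piglets and of 18.1, 25.8 and 40.4 CPM in fasted 4-week piglets. All 16 fasted piglets were above the median of the fed piglets and 15 were above the highest of them, so that the groups overlapped in a single fasted pig. The log2 difference was 1.33 (SE 0.14, n = 16 per group), with an adjusted p of 4.9e-13 from edgeR's quasi-likelihood test with Benjamini-Hochberg adjustment, which is the test behind all adjusted p-values of levels given here. At 6 weeks the corresponding levels were 9.80, 14.8 and 22.4 CPM with feed and 9.98, 16.2 and 25.1 CPM without. These ranges almost coincided, and the difference of 0.17 on the log2 scale (95% interval -0.09 to 0.43) had an adjusted p of 0.31. The response at 6 weeks was smaller than that at 4 weeks by a tested log2 difference of -1.16 (SE 0.19, adjusted p = 5.3e-07). In a bulk sample such as a scraping, fewer cells of a type and less RNA per cell cannot be told apart, which holds for every level below.

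CLOCK, the partner of BMAL1, lies on chromosome 8 from 54793323 to 54910192 (ENSSSCG00000008909) and moved the opposite way at 4 weeks. Its lowest, median and highest levels were 40.6, 61.2 and 88.4 CPM in fed and 19.1, 35.9 and 43.5 CPM in fasted 4-week piglets. All 16 fasted piglets fell below the fed median and 14 below every fed piglet, with a log2 change of -0.92 (SE 0.10, adjusted p = 2.1e-12). In 6-week piglets CLOCK ranged from 23.4 over 29.6 to 40.5 CPM in fed and from 24.5 over 31.8 to 42.2 CPM in fasted pigs. The 6-week groups overlapped nearly in full, with a log2 difference of 0.04 (95% interval -0.15 to 0.23, adjusted p = 0.76). The responses at the 2 ages differed by 0.96 in log2 (SE 0.14, adjusted p = 3.1e-08). CLOCK was thus high in 1 group of 4, the fed 4-week piglets, and the other 3 groups did not differ between neighbours in the order of levels.

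Of the repressors, PER1 and PER2 responded in opposite directions at 4 weeks. PER1 (ENSSSCG00000017983, chromosome 12, 53361863 to 53376723), a period gene that in mammals is also induced by glucocorticoids and cyclic AMP, had a lowest, median and highest level of 36.6, 66.4 and 96.4 CPM in fed and of 91.1, 166 and 263 CPM in fasted 4-week piglets. Of the fasted piglets, 15 were above every fed piglet, and the log2 change was 1.42 (SE 0.17, adjusted p = 3.7e-11). At 6 weeks PER1 spanned 40.3 to 137 CPM around a median of 69.9 in fed and 63.8 to 181 CPM around a median of 106 in fasted piglets. The groups overlapped widely, yet 14 of 16 fasted piglets were above the fed median and the log2 change was 0.50 (SE 0.16, adjusted p = 0.011). With the levels of smooth muscle and B cell markers as covariates this became 0.41, with an adjusted p of 0.055. The rise was smaller at 6 than at 4 weeks by a tested log2 value of -0.92 (SE 0.23, adjusted p = 0.00055).

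PER2 (ENSSSCG00000016338, chromosome 15, 137793419 to 137837854), a period gene whose protein is a core repressor of the loop, had a lowest, median and highest level of 11.6, 17.9 and 24.2 CPM in fed and of 5.30, 9.27 and 15.1 CPM in fasted 4-week piglets. All 16 fasted piglets were below the fed median and 12 below every fed piglet. The log2 change was -0.91 (SE 0.14, adjusted p = 1.7e-07). At 6 weeks the ranges of 7.62 to 20.0 CPM in the fed and 6.16 to 19.2 CPM in the fasted group covered each other, with medians of 12.8 and 13.0 CPM. No difference was called there (log2 0.02, 95% interval -0.26 to 0.30, adjusted p = 0.92), and the 2 responses differed by 0.93 (SE 0.20, adjusted p = 9.5e-05).

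The cryptochromes, which bind the BMAL1 and CLOCK dimer and block it, moved little with fasting. CRY1 (ENSSSCG00000000164, chromosome 5, 13275265 to 13429566) had medians of 18.6, 16.4, 17.3 and 15.7 CPM in fed 4-week, fasted 4-week, fed 6-week and fasted 6-week piglets, and all 64 pigs lay between 11.9 and 23.5 CPM. The 4 groups overlapped, and no neighbours in their order differed. Its fasting difference was 0.03 at 4 weeks (95% interval -0.15 to 0.21, adjusted p = 0.76) and -0.18 at 6 weeks (SE 0.09, adjusted p = 0.11). With library size alone as the scaling, CRY1 was called at 4 weeks with a log2 change of 0.24 (adjusted p = 0.017), where the median of all genes was 0.25 under that scaling against 0.03 under TMM. CRY2 (ENSSSCG00000013270, chromosome 2, 16587101 to 16620380) had a lowest, median and highest level of 39.3, 71.6 and 89.9 CPM in fed and of 36.0, 57.3 and 103 CPM in fasted 4-week piglets. At 6 weeks its levels were 22.8, 39.5 and 50.4 CPM with feed and 32.5, 45.7 and 60.5 CPM without. The fed and fasted ranges overlapped at both ages, and the fasting differences of -0.17 at 4 weeks (SE 0.11, adjusted p = 0.16) and 0.25 at 6 weeks (SE 0.11, adjusted p = 0.056) were not called. CRY2 was called lower at 4 weeks with smooth muscle and B cell levels as covariates (-0.42, adjusted p = 0.0073) and without fasted 4-week pigs 1, 28 and 32 (-0.24, adjusted p = 0.042), and its sign turned with library size alone (0.010) and with crypt and cycling levels as a covariate (0.14). At 6 weeks it was called higher without those pigs (0.25, adjusted p = 0.033). The difference between them, 0.42 (SE 0.15, adjusted p = 0.017), was called, but not with library size alone (0.20, adjusted p = 0.18) or with the crypt and cycling covariate (0.05, adjusted p = 0.84).

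The nuclear receptor pair of the second loop fell together at 4 weeks. NR1D1 (ENSSSCG00000036933, chromosome 12, 22263549 to 22274131), the gene of REV-ERB alpha, had a lowest, median and highest level of 7.27, 20.8 and 63.5 CPM in fed and of 1.53, 9.97 and 34.3 CPM in fasted 4-week piglets. The ranges overlapped, with 15 of 16 fasted piglets below the fed median, and the log2 change was -1.12 (SE 0.28, adjusted p = 0.00038). NR1D2 (ENSSSCG00000027017, chromosome 13, 10756954 to 10791219), the gene of REV-ERB beta, had 23.8, 35.7 and 61.6 CPM in fed and 6.90, 21.5 and 32.7 CPM in fasted 4-week piglets. All 16 fasted piglets lay below the fed median and 11 below every fed piglet, and the log2 change was -0.87 (SE 0.16, adjusted p = 4.8e-06). At 6 weeks neither was called. NR1D1 had medians of 29.8 CPM with feed and 28.4 CPM without (log2 0.04, 95% interval -0.49 to 0.57, adjusted p = 0.92). NR1D2 had medians of 30.6 and 36.3 CPM (log2 0.32, SE 0.16, adjusted p = 0.1). The interval for NR1D1 is wide, because the pigs of each group differed much in this gene. The responses at the 2 ages differed by 1.16 for NR1D1 (SE 0.39, adjusted p = 0.0093) and 1.18 for NR1D2 (SE 0.23, adjusted p = 1.2e-05). For NR1D1 this call was lost with the crypt and cycling covariate (0.83, adjusted p = 0.16).

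DBP, a PAR bZIP transcription factor driven by the BMAL1 and CLOCK dimer, is on chromosome 6 from 53986955 to 53993044 (ENSSSCG00000003148). Its lowest, median and highest levels were 12.6, 29.1 and 100.2 CPM in fed and 1.42, 2.77 and 11.7 CPM in fasted 4-week piglets. The groups did not overlap, which was also so for 4.64% of all genes tested. The log2 change was -3.16 (SE 0.33, adjusted p = 1.2e-12), and 0.284% of all genes, 40 genes with DBP included, fell at least as far. At 6 weeks DBP ranged from 2.19 to 24.2 CPM around a median of 8.15 in fed piglets and from 3.36 to 28.7 CPM around a median of 10.1 in fasted piglets. Those ranges overlapped almost in full, with a log2 difference of 0.39 (95% interval -0.21 to 0.98, adjusted p = 0.31). The 2 responses differed by 3.55 in log2 (SE 0.44, adjusted p = 8.8e-10), and 24 genes, 0.171% of those tested, differed at least as far in that direction.

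In counts, 7 of the 9 clock genes were called at 4 weeks, 2 higher and 5 lower after fasting, where 63.4% of all genes tested were called, 33.9% higher and 29.4% lower. At 6 weeks 1 of 9 was called, beside 41.1% of all genes, 22.7% higher and 18.4% lower. The difference between the responses was called for 8 of 9, 6 with a higher and 2 with a lower value at 6 weeks, where 27.1% of all genes had a higher and 26.6% a lower one. With library size alone that split was 5 and 3. The counts at 4 weeks are thus to be read against many calls among all genes. The median size of the log2 difference, its sign left off, was 0.92 over the 9 genes and 0.38 over all genes at 4 weeks, and 0.18 and 0.24 at 6 weeks. The median with sign was -0.87 over the 9 genes and 0.03 over all genes at 4 weeks.

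**Figure D2:**
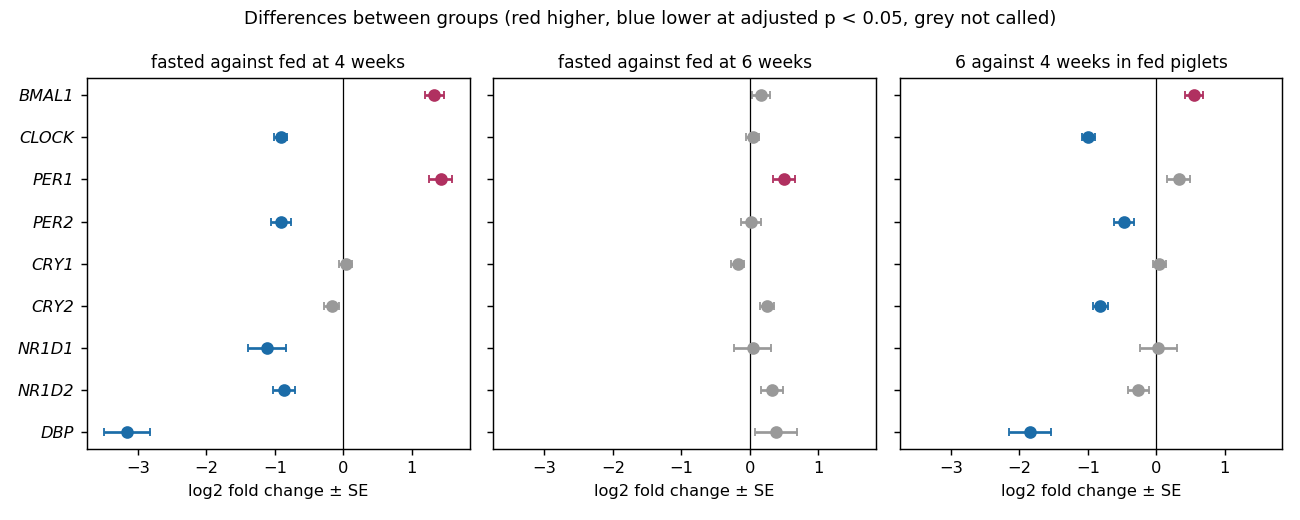
Log2 differences (points) with their SE (bars) for the 9 clock genes in 3 comparisons: fasted against fed at 4 weeks, fasted against fed at 6 weeks, and fed 6-week against fed 4-week piglets. The 4-week fasting values span -3.16 to 1.42, whereas those at 6 weeks lie between -0.18 and 0.50.

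The fed piglets of the 2 ages differed in 5 of the 9 genes, 1 higher and 4 lower at 6 weeks, beside 64.2% of all genes called, 31.9% higher and 32.3% lower. The split of 1 and 4 became 3 and 3 with library size alone, where PER1 (0.54, adjusted p = 0.0029) and CRY1 (0.26, adjusted p = 0.01) joined and PER2 was lost, and the median of all genes moved from -0.01 to 0.20. With limma-voom it became 2 and 4, PER1 joining (0.36, adjusted p = 0.031). On the log2 scale, CLOCK fell by 0.99 (SE 0.10, adjusted p = 1.2e-13), and its lowest fed 4-week piglet at 40.6 CPM was above its highest fed 6-week piglet at 40.5 CPM, groups without overlap being found for 7.88% of all genes. DBP fell by 1.84 (SE 0.31, adjusted p = 5.8e-07), with 13 of 16 fed 6-week piglets below every fed 4-week piglet. CRY2 fell by 0.82 (SE 0.11, adjusted p = 1.4e-09), with all 16 below the fed 4-week median. PER2 fell less, by 0.47 (SE 0.14, adjusted p = 0.0034), which was not called with library size alone (-0.26, adjusted p = 0.1) or with the crypt and cycling covariate (-0.35, adjusted p = 0.11). BMAL1 rose by 0.55 (SE 0.13, adjusted p = 0.00033), with 15 of 16 fed 6-week piglets above the fed 4-week median. PER1 (0.33, SE 0.16, adjusted p = 0.073), NR1D2 (-0.26, SE 0.16, adjusted p = 0.15), CRY1 (0.04, SE 0.09, adjusted p = 0.69) and NR1D1 (0.03, SE 0.27, adjusted p = 0.93) were not called.

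Among fasted piglets 7 of the 9 genes differed between the ages, 4 higher and 3 lower at 6 weeks, beside 42.9% of all genes, 19.7% higher and 23.2% lower. DBP was higher at 6 weeks by 1.70 (SE 0.32, adjusted p = 1.3e-05), NR1D1 by 1.19 (SE 0.28, adjusted p = 0.00037), NR1D2 by 0.92 (SE 0.16, adjusted p = 4.2e-06) and PER2 by 0.46 (SE 0.14, adjusted p = 0.0076). BMAL1 (-0.61, SE 0.13, adjusted p = 0.00014), PER1 (-0.60, SE 0.16, adjusted p = 0.0022) and CRY2 (-0.40, SE 0.11, adjusted p = 0.0018) were lower. These comparisons share their groups with the fasting comparisons and are not independent of them.

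The order of the 4 groups therefore differed from gene to gene, and 12 of 27 pairs of neighbours in these orders differed in the test. Where neighbours differ in both age and feeding, 48.8% of all genes were called between fed 6-week and fasted 4-week piglets, and 65.2% between fasted 6-week and fed 4-week piglets. PER1 ran from fasted 4-week over fasted 6-week to fed 6-week and fed 4-week piglets, the last pair not differing. BMAL1 was highest in fasted 4-week and lowest in fed 4-week piglets, with the 6-week groups between them and not differing from each other. DBP and PER2 had the opposite order, with fed 4-week piglets highest and fasted 4-week piglets lowest. NR1D1 and NR1D2 were low in fasted 4-week piglets only, the other 3 groups not differing between neighbours. For CRY2 the 4-week groups had the higher levels, and fed and fasted neighbours were not called different at either age.

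Other cell types moved with the same groups. The crypt and cycling markers, which mark dividing epithelium, had a mean log2 CPM of 3.19 ± 0.73 (SD, n = 16) in fed and 4.83 ± 0.83 in fasted 4-week piglets, with ranges of 1.83 to 4.28 and 3.18 to 6.05, and all 9 tested markers rose. At 6 weeks they had 4.77 ± 0.45 in fed and 4.54 ± 0.63 in fasted piglets, where 2 fell and 7 were not called. Smooth muscle markers had 4.94 ± 0.59 in fed and 3.07 ± 1.12 in fasted 4-week piglets, with ranges of 3.86 to 5.75 and 0.91 to 4.47, and 9 of 10 fell. At 6 weeks they had 4.38 ± 0.47 and 3.53 ± 0.64, and 6 of 10 fell. With crypt and cycling levels as a covariate, DBP changed by -2.77, BMAL1 by 1.60, PER1 by 1.53, CLOCK by -0.57 and PER2 by -0.79 at 4 weeks, and NR1D2 by -0.58 and NR1D1 by -0.83. With smooth muscle and B cell levels as covariates the values were -2.98 for DBP, 1.02 for BMAL1, 1.20 for PER1, -0.98 for CLOCK, -0.72 for PER2, -0.61 for NR1D2 and -0.97 for NR1D1. All 7 were called at 4 weeks in both fits, and in the latter CRY2 was called as well (-0.42). Markers of further cell types were also called at 4 weeks. These counts are to be read beside all genes tested, of which 33.9% rose and 29.4% fell. The median size of the log2 difference over all genes was 0.38. All 7 plasma cell markers rose (median log2 change 0.93), 8 of 10 fibroblast and stroma markers fell (-1.14), 5 of 7 enteroendocrine markers fell (-0.37), 4 of 8 macrophage and dendritic cell markers rose (0.34), 3 of 7 T cell markers rose (0.30) and 3 of 7 blood endothelium markers fell (-0.48). Of 10 enterocyte markers 2 rose and 5 fell (-0.19), and of 5 goblet cell markers 3 rose and 1 fell (0.36). At 6 weeks 22.7% of all genes rose and 18.4% fell. There 6 of 10 fibroblast and stroma markers fell (-0.72), 3 of 5 goblet cell markers fell (-0.43) and 2 of 7 plasma cell markers fell (-0.25). Of 7 T cell markers 3 rose (0.33). Their part in the clock results was not tested.

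Pigs of 1 group differed most in DBP and NR1D1. The biological coefficient of variation, the spread between pigs of a group beyond counting error, was 0.585 for DBP and 0.525 for NR1D1, at percentiles 95.4 and 93.1 of all genes tested, whose median was 0.226. It was 0.318 for PER1, 0.312 for NR1D2, 0.275 for PER2, 0.258 for BMAL1, 0.211 for CRY2, 0.190 for CLOCK and 0.176 for CRY1. In fasted 4-week piglets the highest NR1D1 level was 22.4 times the lowest, and in fed 6-week piglets DBP spanned 2.19 to 24.2 CPM. CRY2, CLOCK and CRY1 thus lay below the median of all genes in spread.

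Single pigs, picked here after their values were seen, had several clock genes at the extremes of their group together. Fed 4-week pig 9 had the lowest BMAL1 of its group at 6.24 CPM and its highest DBP at 100.2, NR1D1 at 63.5, NR1D2 at 61.6 and PER2 at 24.2 CPM. Fasted 4-week pig 23 was the reverse, with the highest BMAL1 of its group at 40.4 CPM, the lowest NR1D1 at 1.53 CPM and the lowest NR1D2 at 6.90 CPM, and a DBP of 1.47 CPM. Fed 6-week pig 50 had the lowest BMAL1 of its group at 9.80 CPM and the highest DBP at 24.2, NR1D1 at 47.1 and NR1D2 at 46.3 CPM. Fed 6-week pig 40 had the highest BMAL1 at 22.4 CPM with the lowest DBP at 2.19 and NR1D2 at 16.9 CPM. Of these 4 pigs, pigs 9, 40 and 50 were fed, only pig 23 was fasted, and none came from the fasted 6-week group.

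**Figure D3:**
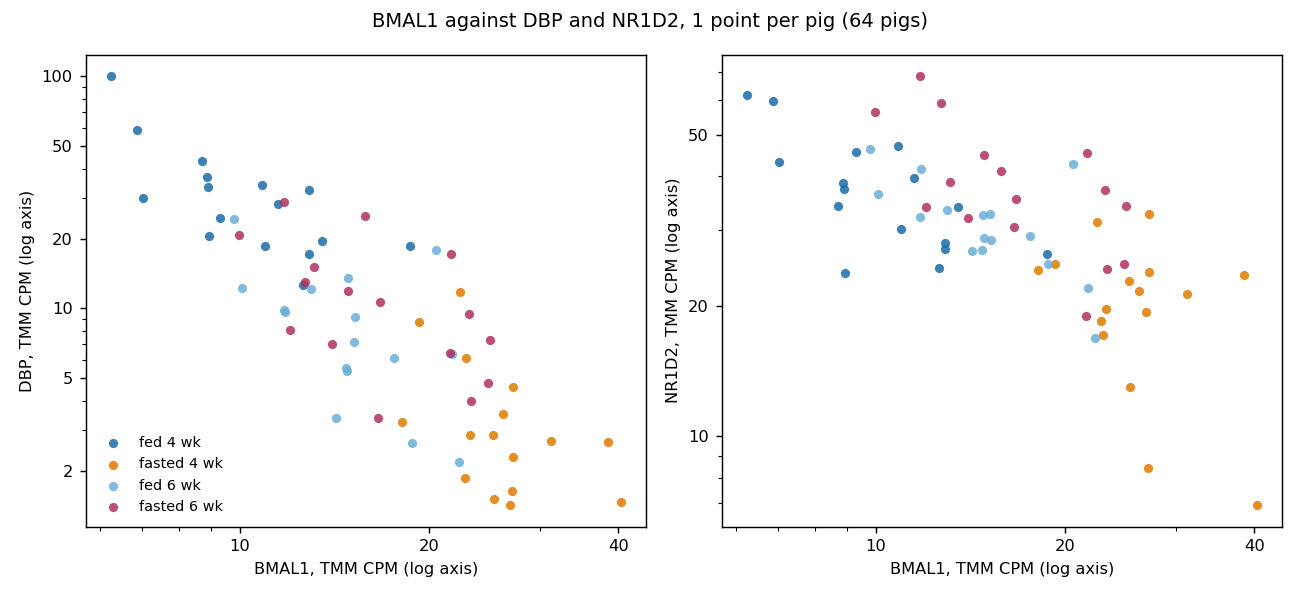
BMAL1 against DBP and against NR1D2 in TMM-scaled CPM on log axes, 1 point per pig (64 pigs), coloured by group. Within each group Pearson's r of BMAL1 was negative, between -0.73 and -0.42, and was called in 1 group for DBP and 2 for NR1D2. Without the 2 pigs farthest from the median of BMAL1, r was -0.22 for NR1D2 in fasted 4-week piglets. It was -0.26 for DBP in fed 6-week piglets, and these were the weakest values. The fasted 4-week piglets lie at high BMAL1 and low DBP.

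Relations between pairs of clock genes were computed within each group over its 16 pigs, giving 144 values for 36 pairs in 4 groups, and tested with 100000 permutations and Benjamini-Hochberg adjustment over the 144. Of these, 16 were called on Pearson's r, 11 positive and 5 negative, and 12 of the 16 were also called on Spearman's rho. Called on rho but not on r were NR1D2 with DBP in fasted 4-week piglets and CRY2 with DBP in fed 6-week piglets. The latter pair had r = 0.57 (rho 0.72, permutation p = 0.02 and 0.0023, adjusted p = 0.12 and 0.032), or 0.77 without the 2 farthest pigs. With library size alone 16 were called, and on residuals of the smooth muscle and B cell marker levels 19 were called, with losses and gains given beside each pair. Permutation takes the pigs of a group as exchangeable, but levels could step with pig number. In fasted 4-week piglets CRY2 was 36.0 to 66.7 CPM in pigs 1 to 19 and 68.8 to 103 CPM in pigs 21 to 32. This example was picked after the values were seen. The part of an hour, litter or batch shared by pigs of nearby numbers was not tested, as the labels give none. The pair called in most groups was NR1D2 with DBP. Its r was 0.81 in fed 4-week piglets (rho 0.74, permutation p = 8e-05 and 0.0014, adjusted p = 0.0037 and 0.028), 0.81 in fed 6-week piglets (rho 0.77, p = 0.00011 and 0.0008, adjusted p = 0.0037 and 0.023) and 0.81 in fasted 6-week piglets (rho 0.91, p = 0.00013 and 1e-05, adjusted p = 0.0037 and 0.00072). In fasted 4-week piglets it was 0.63 (rho 0.68, p = 0.0097 and 0.0045, adjusted p = 0.069 and 0.046), called on rho but not on r. There r was called on marker residuals (0.69, adjusted p = 0.031). Without the 2 pigs farthest from the median of NR1D2 these became 0.64, 0.65, 0.81 and 0.60.

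PER2 was related to DBP among 6-week pigs. Its r with DBP was 0.74 in fed piglets (rho 0.72, permutation p = 0.0011 and 0.0024, adjusted p = 0.016 and 0.032) and 0.88 in fasted piglets (rho 0.88, p = 1e-05 for both, the smallest these permutations can give, adjusted p = 0.0014 and 0.00072), and 0.79 and 0.82 without the 2 farthest pigs. At 4 weeks the r was 0.49 in fed and 0.39 in fasted piglets and was not called, and the difference between ages was not tested. BMAL1 had a negative r with DBP in every group, which was -0.73, -0.48, -0.55 and -0.55 in fed 4-week, fasted 4-week, fed 6-week and fasted 6-week piglets. The first was called (rho -0.77, permutation p = 0.0014 and 0.00075, adjusted p = 0.018 and 0.023, and r = -0.65 without the 2 farthest pigs), but not with library size alone (-0.63, adjusted p = 0.06), under which both fasted groups were called instead (-0.79, adjusted p = 0.0072 at 4 weeks, and -0.72, adjusted p = 0.018 at 6 weeks). With NR1D2 the r of BMAL1 was -0.70, -0.42, -0.67 and -0.65, called in both fed groups with adjusted p = 0.028 and 0.04 (permutation p = 0.0027 and 0.0045), not on rho (-0.65 and -0.59, permutation p = 0.0077 and 0.017), and not on residuals of the marker levels (adjusted p = 0.056 and 0.057). In fasted 6-week piglets the adjusted p was 0.051, and the pair was called with library size alone (-0.82, adjusted p = 0.0032) and on marker residuals (-0.73, adjusted p = 0.017). No difference in r between fed and fasted groups was tested. Without the 2 farthest pigs the fed values were -0.59 and -0.44. With NR1D1 it was called in fasted 6-week piglets (r = -0.70, rho -0.72, permutation p = 0.0021 for both, adjusted p = 0.023 and 0.032, and r = -0.76 without the 2 farthest pigs), and on marker residuals also in fed 6-week piglets (-0.71, adjusted p = 0.026).

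NR1D1 and NR1D2 were related in fasted piglets, with r = 0.87 at 4 weeks (rho 0.74, permutation p = 2e-05 and 0.0013, adjusted p = 0.0014 and 0.028) and 0.77 at 6 weeks (rho 0.61, p = 0.00043 and 0.013, adjusted p = 0.01 and 0.11), or 0.74 and 0.57 without the 2 farthest pigs. In fed piglets the r was 0.63 at 4 and 0.48 at 6 weeks and was not called, but at 6 weeks it was called on marker residuals (0.66, adjusted p = 0.04). NR1D1 with DBP gave r = 0.74 in fed (rho 0.73, permutation p = 0.00098 and 0.0019, adjusted p = 0.016 and 0.032) and 0.71 in fasted 4-week piglets (rho 0.69, p = 0.0018 and 0.0041, adjusted p = 0.022 and 0.045), or 0.62 and 0.62 without the 2 farthest. At 6 weeks this pair had r = 0.15 in fed (adjusted p = 0.75) and 0.48 in fasted piglets (adjusted p = 0.19), and the difference between ages was not tested. CRY1 with NR1D1 gave r = -0.74 in fed 4-week piglets (rho -0.71, permutation p = 0.0011 and 0.0027, adjusted p = 0.016 and 0.033), or -0.59 without the 2 farthest, and r of -0.60, -0.52 and -0.54 in the other 3 groups, not called. CRY1 with BMAL1 gave r = 0.74 in fasted 4-week piglets (rho 0.61, permutation p = 0.00084 and 0.013, adjusted p = 0.016 and 0.11). That r fell to 0.46 without the 2 farthest pigs and so rests in part on them. It was not called with library size alone (adjusted p = 0.11), but stayed called on marker residuals (0.71, adjusted p = 0.026). PER2 with NR1D2 gave r = 0.69 in fasted 6-week piglets (rho 0.86, permutation p = 0.0032 and 0.0001, adjusted p = 0.03 and 0.0048), or 0.74 without the 2 farthest, and was not called with library size alone (adjusted p = 0.054) or on residuals of the marker levels (adjusted p = 0.056). PER1 was in no called pair, but on marker residuals its r with DBP in fasted 4-week piglets was called (0.67, adjusted p = 0.04). PER2 with CRY2 in fasted 6-week piglets was likewise called on marker residuals alone (0.66, adjusted p = 0.045).

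**Figure D4:**
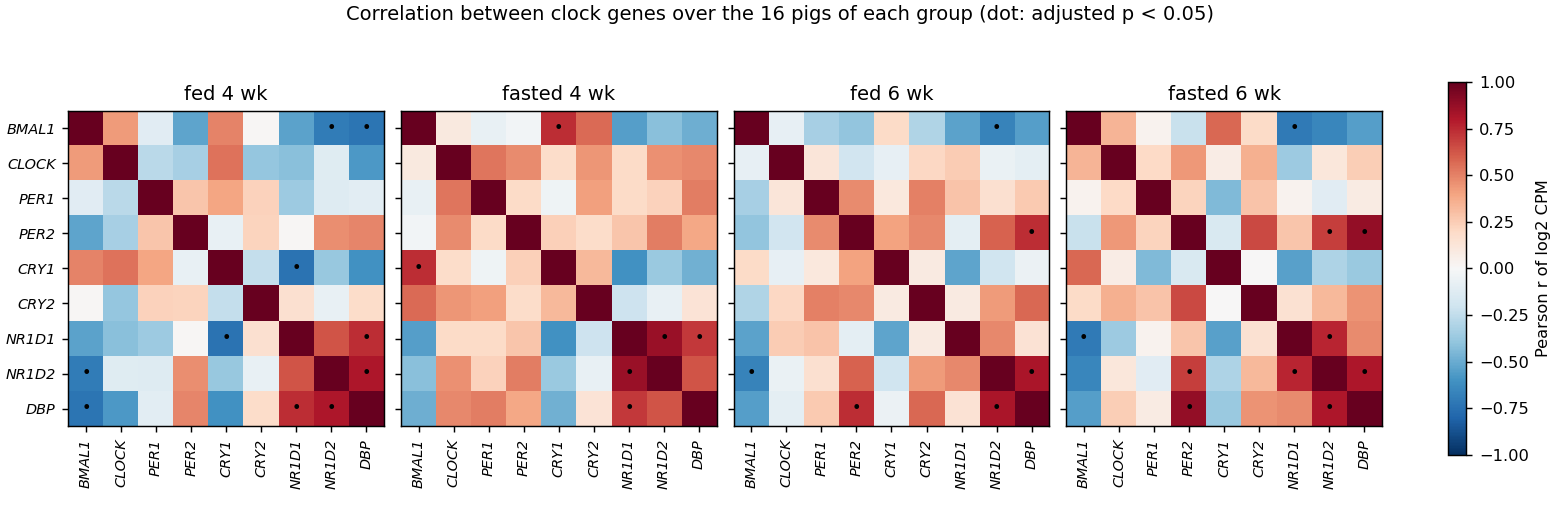
Pearson's r between the log2 CPM of each pair of clock genes within each group (16 pigs per panel), with a dot on pairs whose permutation p is under 0.05 after Benjamini-Hochberg adjustment over 144 values. NR1D2 with DBP has r of 0.81 in 3 panels and 0.63 in the fasted 4-week panel, and no pair with PER1 carries a dot.

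Over all 64 pigs, with each group's mean removed, the genes most like the clock genes were sought among 11655 genes with a symbol, as a description. TEF, a PAR bZIP factor of the same family as DBP, was among the nearest 3 of NR1D2 (r = 0.78), DBP (0.77), NR1D1 (0.65) and PER2 (0.57). CIART, which encodes a repressor of the BMAL1 and CLOCK dimer, was second for NR1D1 (0.57) and NR1D2 (0.63). DBP was also near PTGES, a prostaglandin E synthase (0.71), and CYP27A1, a sterol hydroxylase (0.68), and CYP27A1 was nearest to PER2 (0.58). CRY2 was nearest to WWP2 (0.76), ITM2C (0.74) and PGAP2 (0.72). CLOCK was nearest to ITPR2 (0.78), PIK3C2A (0.77) and SH3D19 (0.74), and genes near BMAL1 were TMEM236 (0.66) and DHX8 (0.64). PER1 was nearest to PARP2 (0.55), VAMP2 (0.55) and HPCA (0.51), and CRY1 to IFNAR1 (0.58), ARRDC4 (0.58) and SPIN1 (0.57). The remaining genes were PTPRD for PER2 (0.57) and INPP4A for NR1D2 (0.53). Library scaling, mucosal makeup and any unrecorded hour or batch enter these values. The third gene of NR1D1, THRA (0.49), is annotated with 3626 bases in common with it. Whether the counting used strand is not stated in the labels. Reads from such overlaps may have been set aside as ambiguous or counted for the other gene. CLOCK likewise shares 3030 annotated bases with TMEM165, and the span of CRY1 holds MTERF2 and TMEM263. At 4 weeks THRA changed by -0.58 (adjusted p = 1.4e-08), TMEM165 by -0.31 (adjusted p = 0.0011), MTERF2 by 0.55 (adjusted p = 7.4e-07) and TMEM263 by -1.85 (adjusted p = 1.4e-20).

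The lists of related genes below are described by counts, with no test of a list, and are to be read against all genes tested: 33.9% rose and 29.4% fell at 4 weeks, and 22.7% rose and 18.4% fell at 6 weeks. The median size of the log2 difference over all genes, its sign left off, was 0.38 at 4 and 0.24 at 6 weeks. Fed and fasted groups without overlap were found for 4.64% of all genes at 4 weeks. Genes were named from a list for having its smallest p, which favours groups that lie apart. Partners of the core clock moved in both directions. Of 13 tested of 14 listed, 5 rose and 3 fell with fasting at 4 weeks, and 6 rose and 2 fell at 6 weeks, with median log2 differences of -0.01 and 0.29 and median sizes of 0.64 and 0.50. TEF had a lowest, median and highest level of 44.5, 74.1 and 122 CPM in fed and 15.8, 36.7 and 88.0 CPM in fasted 4-week piglets, and 30.6, 44.1 and 63.8 CPM in fed and 38.0, 74.2 and 104 CPM in fasted 6-week piglets. It was low in fasted pigs at 4 weeks and low in fed pigs at 6 weeks, with overlap at both ages: it fell by 0.90 at 4 weeks (SE 0.17, adjusted p = 4.7e-06) and rose by 0.66 at 6 weeks (SE 0.17, adjusted p = 0.0012). HLF, the third PAR bZIP gene, went the other way from DBP at 4 weeks, from a median of 5.73 to 13.0 CPM (log2 1.20, SE 0.14, adjusted p = 9.1e-11), and was not called at 6 weeks (-0.24, adjusted p = 0.18). NPAS2, which can take the place of CLOCK in the dimer, rose at both ages, by 0.64 (SE 0.12, adjusted p = 4.9e-06) and 0.93 (SE 0.12, adjusted p = 8.4e-09), and the responses did not pass the test of their difference (0.29, adjusted p = 0.14). At 6 weeks every fasted pig had more NPAS2, 43.7 CPM or above, than any fed pig, 41.4 CPM or below, groups without overlap being found for 0.37% of all genes.

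**Figure D5:**
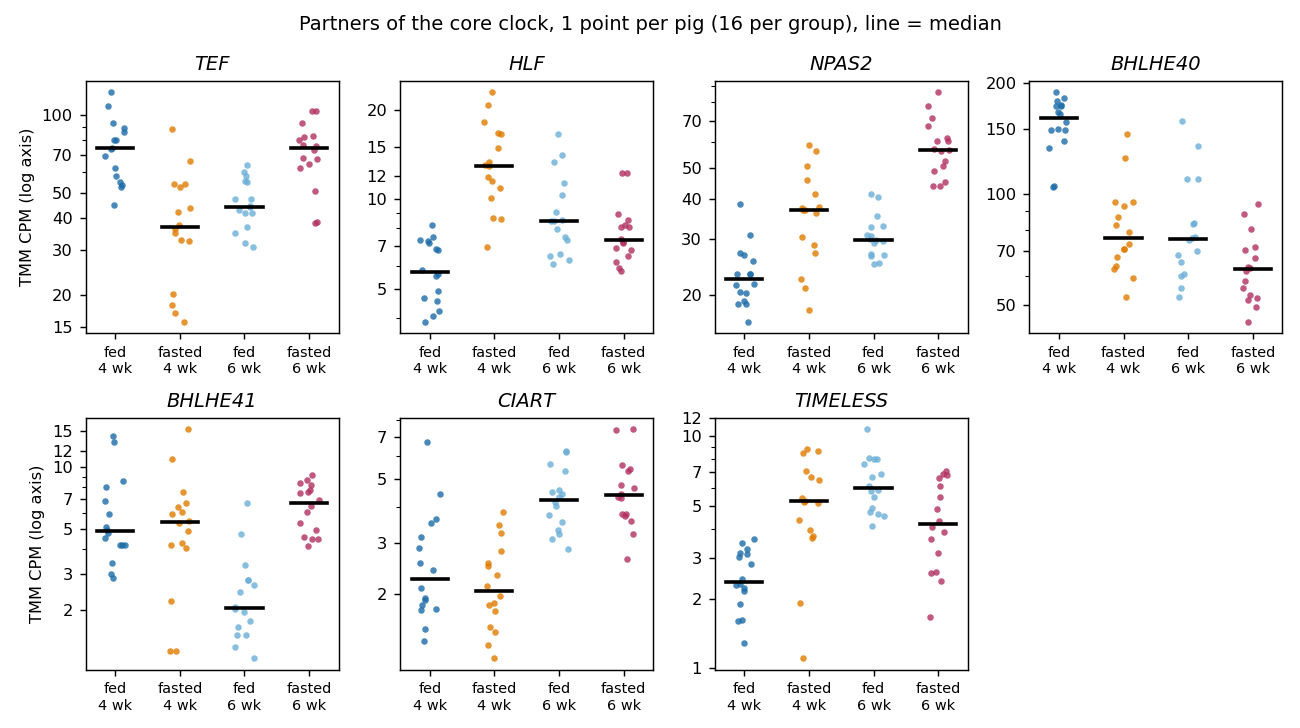
TMM-scaled CPM on a log axis for genes that work with or beside the clock genes, with 1 point per pig (16 per group) and a line at the group median. TEF has medians of 74.1 and 36.7 in fed and fasted 4-week piglets and of 44.1 and 74.2 in fed and fasted 6-week piglets.

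BHLHE41, a repressor that competes with the dimer for its element, was not called at 4 weeks (-0.09, adjusted p = 0.75) and rose by 1.36 at 6 weeks (SE 0.25, adjusted p = 1.1e-05). Its relative BHLHE40 fell at both ages, by 0.91 (adjusted p = 9.6e-09) and 0.38 (adjusted p = 0.013). TIMELESS, a gene of replication forks with a clock role in flies, rose by 1.09 at 4 weeks (adjusted p = 1.9e-06) and fell by 0.50 at 6 weeks (adjusted p = 0.029), and the crypt and cycling markers rose beside it at 4 weeks, their part in its change not being tested. CIART was called in neither fasting comparison (-0.28, adjusted p = 0.15, and 0.10, adjusted p = 0.65) and was higher in fed 6-week than fed 4-week piglets by 0.67 (adjusted p = 0.00055).

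Kinases and ubiquitin ligases set how long PER and CRY proteins last. Of 17 tested of 19 listed, 1 rose and 10 fell at 4 weeks, and 3 rose and 2 fell at 6 weeks. In fed piglets 11 fell from 4 to 6 weeks and 6 were not called, where 32.3% of all genes fell. The median log2 difference over the list was -0.22 at 4 weeks and -0.03 at 6 weeks, and the median sizes of 0.22 and 0.10 were below those of all genes. CSNK1E, a kinase that marks PER proteins for decay, fell from a median of 236 to 103 CPM at 4 weeks (log2 -1.23, SE 0.10, adjusted p = 8.3e-17), with every fasted pig at 163 CPM or below and every fed pig at 188 CPM or above. SIAH2, a ubiquitin ligase that acts on REV-ERB alpha, fell from 67.2 to 25.1 CPM without overlap (log2 -1.44, SE 0.10, adjusted p = 4.8e-20). At 6 weeks neither was called (-0.05, adjusted p = 0.68, and -0.03, adjusted p = 0.83). There CSNK2A2, a catalytic subunit of casein kinase II, rose by 0.40 (SE 0.05, adjusted p = 2.2e-08). GSK3A, a kinase of several clock proteins, fell at both ages, by 0.26 (adjusted p = 0.0014) and 0.28 (adjusted p = 0.0013). USP7, which removes ubiquitin from CRY1, fell by 0.22 at 4 weeks (adjusted p = 7.6e-05). FBXW11, a ligase subunit that binds PER proteins, was called in neither fasting comparison (-0.01, adjusted p = 0.84, and -0.10, adjusted p = 0.072) and fell by 0.26 between fed ages (adjusted p = 1.8e-06).

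Of 16 coregulators, 11 rose and 2 fell at 4 weeks, and 5 rose and 4 fell at 6 weeks. Their medians were 0.26 and -0.03 and their median sizes 0.32 and 0.21, below those of all genes. SIRT1, a deacetylase that binds the CLOCK complex, rose by 0.99 (SE 0.07, adjusted p = 1.9e-18) at 4 and 0.26 (adjusted p = 0.0032) at 6 weeks. NONO, a PER partner, rose by 0.47 (adjusted p = 8.6e-12) and 0.24 (adjusted p = 0.00024). PPARGC1A, a coactivator of BMAL1 transcription, rose by 0.47 at 4 weeks (adjusted p = 0.01) and fell by 1.09 at 6 weeks (adjusted p = 2.8e-07). SIRT6 likewise rose by 0.39 (adjusted p = 5.9e-05) and fell by 0.57 (adjusted p = 2.4e-07). CREBBP, a coactivator, rose by 0.38 at 6 weeks (adjusted p = 4.5e-05).

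Of genes known as clock outputs in other tissues, 15 of 20 listed were tested, 4 rose and 8 fell at 4 weeks, and 2 rose and 7 fell at 6 weeks, with medians of -0.36 and -0.21 and median sizes of 0.56 and 0.35. NOCT, a rhythmic phosphatase known in mice for its part in fat absorption, had a lowest, median and highest level of 46.7, 73.2 and 151 CPM in fed and 7.39, 12.4 and 15.7 CPM in fasted 4-week piglets. Those groups were far apart, and NOCT fell by 2.73 (SE 0.24, adjusted p = 4.2e-15), against 0.69 at 6 weeks (SE 0.23, adjusted p = 0.013). POR, the electron donor of cytochromes P450, fell by 1.61 (adjusted p = 3.7e-19) and 0.52 (adjusted p = 0.00016). CDKN1A, a cell cycle inhibitor that REV-ERB alpha represses in mouse liver, rose by 1.51 at 4 weeks (adjusted p = 1.8e-13) and fell by 0.48 at 6 weeks (adjusted p = 0.0069). PDK4, a brake on glucose oxidation, was not called at 4 weeks (0.33, adjusted p = 0.17) and rose by 3.43 at 6 weeks (SE 0.24, adjusted p = 1.5e-17), where its fed median of 6.66 CPM was low beside 82.6 CPM in fed 4-week piglets. PNPLA2, a triglyceride lipase, fell by 0.36 at 4 weeks (adjusted p = 0.038) and rose by 1.05 at 6 weeks (adjusted p = 2.5e-07), and HIF1A, the hypoxia factor gene, fell by 0.41 (adjusted p = 1.1e-05) and 0.44 (adjusted p = 9.3e-06).

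Absorption genes that are rhythmic in rodent intestine were tested for 14 of 15 listed. At 4 weeks 1 rose and 6 fell, and at 6 weeks 3 rose and 1 fell, with medians of -0.13 and 0.02 and median sizes of 0.35 and 0.19, below those of all genes. DGAT2, an enzyme of triglyceride synthesis, fell from a median of 1392 to 73.4 CPM at 4 weeks (log2 -3.97, SE 0.29, adjusted p = 9.6e-19), without overlap, and was not called at 6 weeks (-0.05, adjusted p = 0.9), where both medians were below 100 CPM. APOA4, an apolipoprotein of chylomicrons, fell by 2.82 (adjusted p = 2.4e-20) and 1.46 (adjusted p = 2.2e-09). SLC9A3, a sodium and proton exchanger, fell by 1.50 at 4 weeks (adjusted p = 4.6e-15) and was not called at 6 weeks (0.20, adjusted p = 0.21). SLC2A5, the fructose transporter, was not called at 4 weeks (0.22, adjusted p = 0.3) and rose by 0.68 at 6 weeks (adjusted p = 0.0021). ABCG5, a sterol exporter subunit, was not called at 4 weeks (0.07, adjusted p = 0.66) and rose by 0.61 at 6 weeks (adjusted p = 0.00028).

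Among signals that can set peripheral clocks, 7 of 17 tested of 18 listed rose and 5 fell at 4 weeks, and 7 rose and 2 fell at 6 weeks, with medians of 0.12 and 0.21 and median sizes of 0.44 and 0.29. FKBP5, a target of the glucocorticoid receptor, had a lowest, median and highest level of 35.7, 50.1 and 64.2 CPM in fed and 69.1, 126 and 197 CPM in fasted 4-week piglets. The 4-week groups did not overlap, and the change was 1.31 (SE 0.12, adjusted p = 1.1e-14), while at 6 weeks the medians were 60.0 and 60.5 CPM (log2 0.03, SE 0.12, adjusted p = 0.83). NR3C1, the glucocorticoid receptor gene, was not called at 4 weeks (0.09, adjusted p = 0.45) and rose by 0.42 at 6 weeks (adjusted p = 0.00041). INSR, the insulin receptor gene, fell by 0.96 at 4 weeks (adjusted p = 7.6e-06) and rose by 1.27 at 6 weeks (adjusted p = 1.8e-07), and CRTC3, a coactivator of CREB, fell by 0.51 (adjusted p = 3.4e-07) and rose by 0.42 (adjusted p = 4.3e-05). IRS2, an adaptor of insulin signalling, rose at both ages, by 0.60 (adjusted p = 0.011) and 1.21 (adjusted p = 5.9e-06), and FOXO3 fell by 0.64 at 4 weeks (adjusted p = 4.6e-07).

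Immediate early genes, which follow stimulation of a cell within minutes and whose pathways can induce PER1, rose at 4 weeks for 7 of 12 and fell for 1, and at 6 weeks 5 fell and 7 were not called, with medians of 0.61 and -0.38 and median sizes of 0.72 and 0.38. EGR2 rose by 1.72 (SE 0.18, adjusted p = 1.1e-12) and EGR1 by 1.25 (SE 0.24, adjusted p = 6.1e-06) at 4 weeks. At 6 weeks EGR1 fell by 0.63 (adjusted p = 0.028), FOSL1 by 2.15 (adjusted p = 8.4e-07) and FOSB by 2.08 (adjusted p = 2.3e-05), while EGR2 was not called (-0.22, adjusted p = 0.31). The level of FOSL1 was very low, with medians of 0.61 CPM in fed and 0.17 CPM in fasted 6-week piglets. JUNB rose by 0.73 at 4 weeks (adjusted p = 0.00011) and fell by 0.49 at 6 weeks (adjusted p = 0.013), and NR4A1 fell by 0.64 at 6 weeks (adjusted p = 0.0053).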

How the data were processed

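RNA of jejunal mucosa from 64 pigs was sequenced on a BGISEQ-500, per the labels' protocols. The authors deposited a table of raw read counts for each pig. Per the submitters' processing notes the tools were STAR and HTSeq and the build was Sscrofa11.1. Their versions, the annotation and the strand setting are not given in the sources used here. HTSeq's 5 summary classes were left out of library sizes: no-feature reads came to 4.84 to 8.89% of a library, ambiguous reads to 5.50 to 7.64% and reads aligned more than once to 2.73 to 4.07%. From the counts, edgeR 4.0.16 (R 4.3.3) with TMM (factors 0.758 to 1.38) and filterByExpr gave robust quasi-likelihood tests with 4 group means over all 64 pigs, adjusted by the Benjamini-Hochberg method over 14062 genes and called at an adjusted p under 0.05. SE is the log2 difference over the square root of F. Positions come from a RefSeq gene table of Sscrofa11.1; of 31908 identifiers, 15029 had a symbol and held 86.0% of counts.

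Alternatives were DESeq2 1.42.0, limma 3.58.1 voom with quality weights, other scalings and filters, 2 groups only, marker covariates, and leaving out fasted 4-week pigs 1, 28 and 32, which had the least weight in an earlier analysis. The test was tried on simulated counts. The clock genes and the lists were chosen with earlier results of these data known. Beside the clock genes, the text names from each list the 3 genes with the smallest p in each fasting comparison and between fed ages, and the 3 genes nearest each clock gene. A few genes that this rule names are not reported here.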

Additional observations from a re-analysis of the deposited data

Results flagged for a closer look

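In the interaction test of edgeR with Benjamini-Hochberg adjustment, the fasting response differed between the ages for 8 of the 9 clock genes. A difference was called for 53.7% of all genes tested. The log2 difference, 6-week response minus 4-week response, was 3.55 for DBP, 1.18 for NR1D2, 1.16 for NR1D1, 0.96 for CLOCK, 0.93 for PER2, 0.42 for CRY2, -0.92 for PER1 and -1.16 for BMAL1. The call was lost with library size alone for CRY2, and with the crypt and cycling covariate for CRY2 and NR1D1.

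Genes were named from the lists for a small p in comparisons that share groups with this test, which can favour a difference here. Values are given only for named genes that passed, beside 53.7% of all genes tested. Named genes that did not pass, such as NPAS2, are left out. Among core partners the difference was 1.56 for TEF, 1.46 for BHLHE41, 0.53 for BHLHE40, -1.44 for HLF and -1.59 for TIMELESS. Among kinases and ligases it was 1.41 for SIAH2, 1.17 for CSNK1E, 0.30 for USP7 and 0.26 for CSNK2A2. Among coregulators it was 0.29 for CREBBP, -0.24 for NONO, -0.73 for SIRT1, -0.96 for SIRT6 and -1.56 for PPARGC1A.

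Among outputs it was 3.09 for PDK4, 2.04 for NOCT, 1.41 for PNPLA2, 1.09 for POR and -1.98 for CDKN1A. Among absorption genes it was 3.93 for DGAT2, 1.70 for SLC9A3, 1.36 for APOA4 and 0.54 for ABCG5. Among signals it was 2.23 for INSR, 0.93 for CRTC3, 0.54 for FOXO3, 0.33 for NR3C1 and -1.28 for FKBP5. Among immediate early genes it was -0.87 for NR4A1, -1.22 for JUNB, -1.88 for EGR1, -1.94 for EGR2, -3.01 for FOSL1 and -3.63 for FOSB. FOSL1 was very low in every group, with medians of 0.17 to 0.61 CPM.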

How the results depend on the processing

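Over 45 results of the clock genes and 396 values under other settings, 369 kept their direction and their side of the threshold, 6 lost and 10 gained a call, and 11 changed sign, each of the last for a difference that was not called. The number of clock genes called at 6 weeks was 1, and 2 both with 2 groups only and without fasted 4-week pigs 1, 28 and 32, CRY2 joining PER1. The sign changed for CRY2 at 4 weeks with library size alone (0.010) and with the crypt and cycling covariate (0.14), a setting chosen after seeing the data. At 6 weeks it changed for PER2 with library size alone (-0.021), no filter (-0.0038), that covariate (-0.00058) and limma-voom (-0.0023), for CLOCK with smooth muscle and B cell covariates (-0.022) and the crypt covariate (-0.011), for BMAL1 with smooth muscle and B cell covariates (-0.034), and for NR1D1 with limma-voom (-0.24). Between fed ages it changed for NR1D2 with the crypt covariate (0.020). Library size alone moved the median log2 difference of all genes from 0.03 to 0.25 at 4 weeks. With 16 pigs per group, single pigs were not left out in turn. No paired analysis was possible because pig numbers do not recur between groups. The hour of sampling is not given.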
